A study of Mus musculus with 14 samples.

Results

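Oncofetal liver markers are genes of the fetal liver that are little used after birth and often found again in liver tumours. A set of 9 genes listed under that name was examined in the miR-122 knockout mouse liver: Afp, Gpc3, Ly6d, Lgals1, Sox4, Bex1, Abcd2, Tff3 and Igf2bp3. Members were taken as the rows of the authors' 5-week table that carry one of these names as gene symbol, which gave 8 genes with 1 probe set each among 14996 probe sets. Bex1 had no row there and was not analysed here. The name did not hold for every gene in these arrays: Ly6d, Lgals1 and Abcd2 were above background in both control arrays, and Abcd2 had a lower mean in knockout.

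The arrays compared came from 2 control and 2 knockout livers of male mice aged 5 weeks, on a background labelled 57/BL6J. By genotype the controls were miR-122loxP/loxP, although their titles say wild type, and the knockouts were miR-122loxP/loxP Alb-Cre. Both groups therefore carry the floxed alleles, and the albumin promoter drives Cre in hepatocytes and their precursors. By that label, liver cells that do not derive from those precursors should keep the gene. The series' design text calls the same 5-week knockout a germ-line one, which the genotype label does not. Whether each sample came from its own mouse is not stated, so the spread between samples may be technical. Another 5 control and 5 knockout samples, aged 8 weeks and run on a different array, were not analysed here. No row of the 5-week table named miR-122, so its loss was not checked.

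In the mouse, Afp and Gpc3 are transcribed at high levels by fetal hepatocytes and are shut down in the weeks after birth, with the homeobox protein Zhx2 and the zinc finger protein Zbtb20 known as repressors. Both genes are used as markers of hepatocellular carcinoma. Igf2bp3 is made mainly in embryonic tissues and in tumours, whereas Lgals1, Sox4, Ly6d and Tff3 are known from stromal, progenitor, squamous, lymphoid or mucosal cells as well.

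All values are log2 signals after robust multi-array averaging (RMA), so a difference of 1 is a 2-fold change. Differences are knockout minus control. The main test was a limma fit over all 35556 probe sets of the array table, with Benjamini-Hochberg adjustment over all of them, and a gene was called at an adjusted p under 0.05. A second limma fit used the 12871 genes that have a name, with the brightest probe set for each, and is called the named-gene fit. Names were available only for probe sets of the authors' table, so this fit leaves out all others. Levels of different probe sets are not comparable in absolute terms, as each binds its target with its own strength. To judge which values lay close to background, 73 probe sets of olfactory and vomeronasal receptors, genes that liver is not known to use, were taken as a guide. All 73 are from the authors' table, which favours bright probe sets. A group mean at or under their median in the same group is said to be at background, and one between the median and the 95th percentile near background. In controls the median was 6.0 and the 95th percentile 6.86, and in knockouts they were 5.68 and 6.64.

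The arrays were alike in overall level, with medians of 5.92 to 5.96, and the pairs within a genotype correlated at 0.985 for control and 0.991 for knockout, across probe sets. Control replicate 2 stood apart among the receptor probe sets, all of them from the authors' table. Their median was 6.37 in that array, against 5.73, 5.62 and 5.75 in control replicate 1 and knockout replicates 1 and 2. Over all probe sets the 25th percentile was 4.79 in control replicate 2, against 4.69, 4.63 and 4.66 in the same order. The gap of the receptors is thus not shown for dim probe sets in general. Control replicate 2 lay more than 1 log2 unit above control replicate 1 in 553 probe sets and below it in 359. Knockout replicate 2 lay above knockout replicate 1 by as much in 188 and below in 333. Among the 553 were the smooth muscle actin gene Acta2 (8.68 against 6.72), the mucin gene Muc1 (7.86 against 5.69) and the galectin gene Lgals4 (7.91 against 6.45). These genes were picked after their values were seen, and the named-gene fit was also run without this array and with array weights, which called 1899 genes where equal weights called 1928.

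Of the 8 measured genes, 7 had a higher mean in knockout livers and 1, Abcd2, a lower one. In each of the 8 both knockout arrays lay on the same side of both control arrays. Such separation without overlap is common in these data: it was found for 32.1% of named genes in the upward and 27.0% in the downward direction. The size of the differences was less common, as 4 of the 8 genes were at least 2-fold higher, against 3.08% of named genes. The median difference over the 8 genes was 1.22, against 0.0050 over all named genes. Members were chosen with earlier results of these data known, so comparing them with all genes gives no independent evidence. Members at background in control may also have entered the authors' table through their knockout level, which would favour a higher knockout mean.

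**Figure D1:**
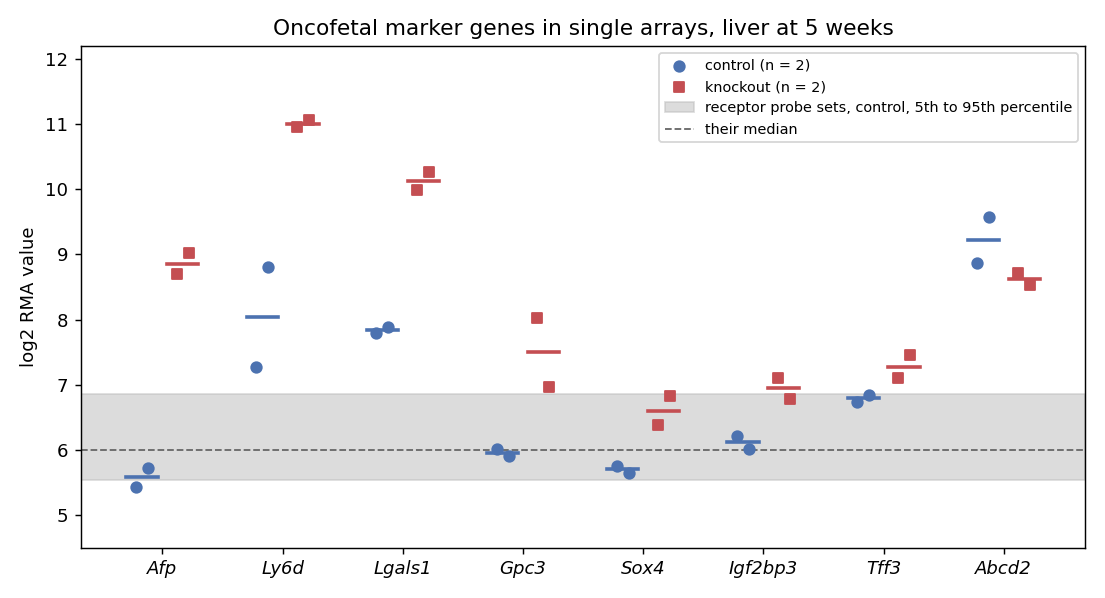
Log2 RMA values (vertical axis) of the 8 marker genes in each of the 4 arrays, with circles for control, squares for knockout and short lines for the group means. The grey band spans the 5th to 95th percentile of receptor probe sets in control, from 5.54 to 6.86, and 5 of the 8 control means lie in it.

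The number of calls depended on the probe sets that entered the fit. Over all 35556 probe sets limma called none, 0.0% of those tested, and so no marker gene, while 7 of the 8 marker genes and 15.9% of all probe sets had an unadjusted p under 0.05. In the named-gene fit 6 of the 8 were called, all higher: Afp, Lgals1, Ly6d, Igf2bp3, Sox4 and Gpc3. The background of that fit was 15.0% of named genes called, 10.8% higher and 4.15% lower. The same 6 genes passed when the authors' deposited p-values were adjusted over their table, where 8.48% of probe sets were called higher (8.7% with limma on the same probe sets). Both sets of calls rest on probe sets of that table and on the same data, so their overlap is no independent evidence. In the limma fit over all probe sets, 23.2% of the probe sets in that table had an unadjusted p under 0.05, against 10.5% of the others. Without any one of the 4 arrays limma called no gene in the named-gene fit and no probe set in the fit over all probe sets. Such a fit takes its spread from the other group alone, with the lone array assumed to vary like it, so it has little power. The differences themselves stayed between 3.12 and 3.44 for Afp and between 2.15 and 2.43 for Lgals1. With 2 arrays against 2, an exact permutation test of a single gene cannot go below a two-sided p of 0.333.

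Among the secreted and surface proteins, Afp encodes alpha-fetoprotein, the fetal counterpart of albumin in plasma. It measured 5.43 and 5.73 in the control arrays and 8.70 and 9.02 in the knockout arrays. The 2 groups were 2.97 apart at their closest, while arrays of one group differed by at most 0.32. The difference of the means was 3.28 (limma SE 0.179, 95% interval 2.81 to 3.75), a 9.71-fold higher level. The adjusted p was 0.0524 over all probe sets and 0.00130 in the named-gene fit with limma. Afp ranked 7 among the 12871 named genes by size of its upward difference. Its control mean of 5.58 ± 0.212 (SD, n = 2) was at background, below the receptor median in both control arrays, so the true control level and hence the fold are uncertain.

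Gpc3 encodes glypican-3, a heparan sulphate proteoglycan tethered to the cell surface. It measured 6.01 and 5.9 in control and 8.03 and 6.97 in knockout. Both knockout arrays were higher, but they differed from each other by 1.06, which was the widest spread within the knockout group among the 8 genes. The difference was 1.54 (limma SE 0.368), with an adjusted p of 0.170 over all probe sets and 0.0266 in the named-gene fit. With the replicate number as a block the named-gene call was lost (adjusted p = 0.0539), and likewise with limma's trended and robust variance (adjusted p = 0.0773). Without knockout replicate 1 the difference was 1.01, and without knockout replicate 2 it was 2.08, neither with a call. Its control mean of 5.96 was at background, although control replicate 1 alone lay above the receptor median of that array.

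Afp and Gpc3, the most used clinical markers of the set, have start regions of different make-up. Both are printed here so that the letters behind this contrast can be seen, from 250 bases before to 50 bases after the start, 5′ to 3′, as given by RefSeq on GRCm38.p6. Capitals mark the TATA box TATAAA, a half-site of the hepatocyte factor HNF1, spelled GTTAAT, and the GC box, spelled GGGCGG or, on the opposite strand, read backwards as its complement. All searches covered both strands. Afp lies at chr5:90490464-90490763 on the plus strand and Gpc3 at chrX:52613925-52614224 on the minus strand.
Afp: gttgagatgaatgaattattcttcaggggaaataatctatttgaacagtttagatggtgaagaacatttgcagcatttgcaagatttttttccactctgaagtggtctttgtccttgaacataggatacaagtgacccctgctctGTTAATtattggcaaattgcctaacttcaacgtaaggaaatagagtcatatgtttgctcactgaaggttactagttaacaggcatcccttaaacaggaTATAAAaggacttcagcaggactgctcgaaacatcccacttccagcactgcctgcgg
Gpc3: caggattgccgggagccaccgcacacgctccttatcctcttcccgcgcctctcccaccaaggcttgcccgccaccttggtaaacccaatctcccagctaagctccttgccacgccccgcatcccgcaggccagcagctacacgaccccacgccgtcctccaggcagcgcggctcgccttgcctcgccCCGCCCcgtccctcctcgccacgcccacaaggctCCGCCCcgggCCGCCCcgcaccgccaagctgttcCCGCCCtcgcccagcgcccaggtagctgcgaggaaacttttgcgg
The Afp region held 1 GTTAAT, beginning at base -105, and 1 TATAAA, beginning at base -7 from the annotated start, with 40% G and C and 3 CpG. The Gpc3 region held 4 GC boxes, neither of the other 2 words, 70.7% G and C and 30 CpG. Across 32851 promoters in the table, GTTAAT occurred in 7.10%, TATAAA in 13.6% and GGGCGG in 35.7%, on either strand. Of the other measured genes, the start regions of Sox4 and Igf2bp3 held none of the 3 words, with 12 and 25 CpG. Of the other words searched, CCAAT (37.4% of promoters) occurred in all 4 regions of measured genes, 4 times in that of Sox4 and once in the others. TTGCNNAA, a C/EBP word present in 10.8% of promoters, occurred in the Afp region alone among the 4, at base -89. TGTTTAC (3.65%), a FOXA core, and CAAAGTCC (1.42%), an HNF4 half-site, occurred in none. CANNTG, the E-box, is in 72.3% of promoters and was found in those of Afp, Sox4 and Igf2bp3. No matches of different words overlapped. Start regions of Ly6d, Lgals1, Abcd2 and Tff3 were not among those matched.

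Ly6d encodes a small GPI-anchored protein of the Ly6 family, known as a marker of B-lymphoid progenitors and of squamous epithelium. It measured 7.28 and 8.80 in control and 10.95 and 11.06 in knockout. Knockout arrays nearly coincided, whereas control arrays were 1.52 apart, the widest spread within the control group among the 8 genes. The difference was 2.96 (limma SE 0.514, 95% interval 1.61 to 4.32), a 7.81-fold higher level. The adjusted p was 0.108 over all probe sets and 0.0110 in the named-gene fit, where it became 0.0929 with trended and robust variance. Leaving out control replicate 2, the higher control, raised the difference to 3.73, and leaving out control replicate 1 lowered it to 2.21 (named-gene adjusted p of 0.114 and 0.121). Its control mean of 8.04 ± 1.07 (SD, n = 2) was above background.

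Lgals1 encodes galectin-1, a lectin that binds beta-galactosides inside and outside cells. It measured 7.79 and 7.89 in control and 9.99 and 10.27 in knockout. The groups were 2.10 apart at their closest and their members differed by at most 0.28, so that Lgals1 and Afp had the most separated groups relative to their spread. The difference was 2.29 (limma SE 0.144, 95% interval 1.91 to 2.67), a 4.89-fold higher level, with an adjusted p of 0.0524 over all probe sets and 0.00137 in the named-gene fit. It was the only gene of the 3 with the largest differences that had both a narrow control group and a control mean above background (7.84).

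Tff3 encodes a trefoil peptide secreted with mucus. It measured 6.74 and 6.84 in control and 7.10 and 7.45 in knockout, which put the groups 0.26 apart, less than the distance of 0.35 between both knockout arrays. The difference was 0.48 (limma SE 0.160, 95% interval 0.06 to 0.91). Its adjusted p was 0.267 over all probe sets and 0.0757 in the named-gene fit, and it passed in none of the alternatives run. Control was near background at 6.79, short of the receptor 95th percentile by 0.07.

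Of the nuclear and RNA-binding factors, Sox4 encodes a transcription factor of the high-mobility-group box family that is active in progenitor cells. It measured 5.76 and 5.65 in control and 6.38 and 6.82 in knockout. The difference was 0.90 (limma SE 0.183), with an adjusted p of 0.137 over all probe sets and 0.0190 in the named-gene fit, and of 0.0641 there with the replicate block. Its control mean of 5.71 was at background and its knockout mean of 6.60 near it, the only knockout mean of the 8 that was not above background, so the size of its fold is uncertain.

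Igf2bp3 encodes an RNA-binding protein that associates with Igf2 messenger RNA and is hardly made in adult tissues. It measured 6.22 and 6.01 in control and 7.11 and 6.78 in knockout. The difference was 0.83 (limma SE 0.167), a 1.78-fold higher level, with an adjusted p of 0.135 over all probe sets and 0.0184 in the named-gene fit. Control lay near background at 6.12, and the knockout mean of 6.95 exceeded the receptor 95th percentile by 0.31.

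Abcd2 encodes a peroxisomal ABC transporter of very-long-chain fatty acyl-CoA and was the member whose direction went against the label of the set. It measured 8.87 and 9.57 in control and 8.71 and 8.53 in knockout. The groups were only 0.16 apart, less than the 0.70 between both control arrays. The difference was -0.60 (limma SE 0.261, 95% interval -1.29 to 0.09), a level 1.52 times lower. Its adjusted p was 0.369 over all probe sets and 0.140 in the named-gene fit, and it passed under none of the alternatives. Without control replicate 2 the difference was -0.25, and without control replicate 1 it was -0.95. Control was well above background at 9.22.

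By control level the set thus held 3 genes at background (Afp, Gpc3 and Sox4), 2 near it (Igf2bp3 and Tff3) and 3 above it (Ly6d, Lgals1 and Abcd2). Taken array by array, 1 gene was at background in control replicate 1 and 4 in control replicate 2, so the line between at and near depends on the array. The same 3 genes were above background in both control arrays. The receptor probe sets themselves had a higher mean in knockout for only 2 of 73, with a median difference of -0.29. Over all probe sets the median difference was -0.055. In control replicate 2, 0 of the 73 lay below 5.73, whereas in control replicate 1, 24 lay below 5.43. If a dim probe set entered the authors' table through its control level, a lower knockout mean could follow from that. Likewise Afp, Gpc3 and Sox4, at background in control, may have entered it through their knockout level. That would favour a higher knockout mean, and it was not tested. Whether the receptor difference bears on the values of the marker genes was not tested. How the authors chose the probe sets of their table is not stated, but the table favours bright ones. The higher group mean of a probe set had a median of 7.60 in it and 5.01 outside it. These receptors may therefore not stand for all. Their control median of 6.0 exceeded the medians of all probe sets in the control arrays, 5.92 and 5.96. The background line may thus lie too high, and fewer genes may be at or near background than counted.

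**Figure D2:**
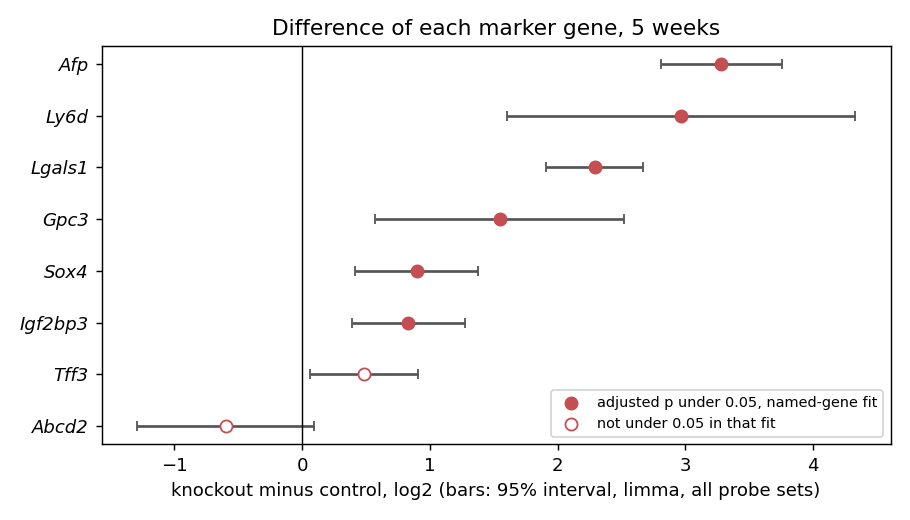
Knockout minus control on the log2 scale (horizontal axis) for the 8 marker genes, with the 95% interval from the limma fit over all probe sets. Filled points mark the 6 genes with an adjusted p under 0.05 in the named-gene fit. Intervals of neighbouring genes overlap throughout, and only that of Abcd2 includes 0.

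In order of difference the genes ran from Afp (3.28) through Ly6d, Lgals1, Gpc3, Sox4, Igf2bp3 and Tff3 to Abcd2 (-0.60). Neighbours from Afp down to Tff3 were separated by 0.26 to 1.89 times the standard error of their gap, which does not set them apart. Tff3 and Abcd2 were 1.08 apart, 3.54 times the standard error of that gap. The order of neighbours within the higher genes is therefore loose, and genes further apart in the order were not compared in this way. The 95% intervals of Afp (2.81 to 3.75) and Lgals1 (1.91 to 2.67), which are not neighbours, did not overlap.

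The genes whose profile was most like that of Afp over the 4 arrays were sought by the root mean square difference of values taken relative to each gene's control mean. They were Spp1, encoding osteopontin (0.06 log2 units), Plet1, a placental and epithelial progenitor antigen (0.09), and Aqp7, a glycerol channel (0.10). For Gpc3 they were the renin gene Ren1 (0.14), the serine protease inhibitor gene Serpina1d (0.15) and Ms4a4a (0.16). Ren1 measured 7.64 and 7.19 in control and 9.41 and 8.33 in knockout, so that knockout replicate 1 was the higher one, as for Gpc3. Serpina1d belongs to a family of near-identical copies, and its probe set may also bind those copies. With 4 arrays and 12871 genes such likeness is a description only.

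Most relatives of the marker genes did not pass, in a list that also holds the galectin ligand gene Lgals3bp and oncofetal partners of Igf2bp3. In the named-gene fit 7 of 37 measured relatives were higher, 1 was lower and 29 did not pass, of 55 listed, with a median difference of 0.0050. Across all 12871 named genes 1394 were higher and 534 lower, with a median of 0.0050. No relative passed in the fit over all probe sets. In the albumin family Alb differed by -0.01, the vitamin D binding protein gene Gc by 0.04 and afamin, Afm, by 0.0050, none with a call, beside the 3.28 of Afp. Alb measured 13.65 and 13.71 in control and 13.66 and 13.68 in knockout. None of the 3 measured glypicans passed: Gpc1 differed by -0.34, Gpc4 by -0.21 and Gpc6 by 0.32. Trefoil factor Tff1 differed by -0.23 without a call. Of the other peroxisomal transporters Abcd3 differed by 0.12 and Abcd4 by -0.35, neither with a call.

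Several relatives of Ly6d, Lgals1 and Sox4 did pass in the named-gene fit. Ly6e, an interferon-responsive surface protein gene, was higher by 1.51 (adjusted p = 0.00258), Ly6a, the stem cell antigen Sca-1, by 1.01 (adjusted p = 0.0108) and Ly6c1, a monocyte and endothelial antigen gene, by 0.81 (adjusted p = 0.0354). Ly6 genes have close copies, and probes may be shared between them. The remaining 5 measured Ly6 relatives did not pass. In the galectin list Lgals3, common in macrophages, was higher by 0.80 (adjusted p = 0.00851). Lgals3bp, which encodes a secreted galectin-3 ligand and not a galectin, was higher by 1.03 (adjusted p = 0.00438). Sox9, a factor of bile duct and progenitor cells, was higher by 0.84 (adjusted p = 0.0263) and Sox5 lower by 0.69 (adjusted p = 0.0335), with the other 6 Sox genes not passing. Bex3, the measured relative closest in name to the absent Bex1, was higher by 1.02 (adjusted p = 0.0129), from a control mean at background. Igf2bp2 and the measured oncofetal partners of Igf2bp3 stayed at or near background in both groups. Igf2bp2 measured 5.55 and 5.63 in control and 6.39 and 5.48 in knockout. The partners Lin28a and Trim71, a let-7 pathway gene, differed by -0.02 and -0.36 without a call.

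**Figure D3:**
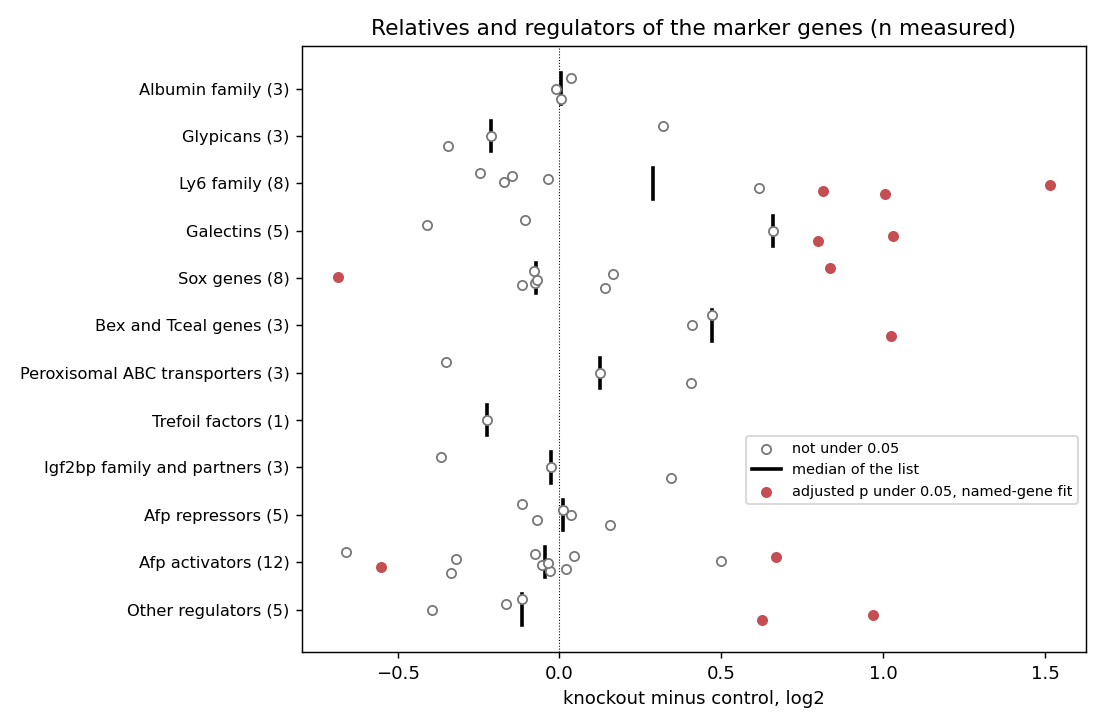
Knockout minus control on the log2 scale (horizontal axis) for relatives of the marker genes and for regulators of Afp and Gpc3, by list (vertical axis), 1 point a gene, with the list's median as a black bar. Filled points passed at an adjusted p under 0.05 in the named-gene fit. The 5 genes listed as repressors of Afp lie between -0.12 and 0.16.

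Transcripts of the genes listed as repressors of Afp did not differ detectably at this number of arrays. Zhx2 measured 7.66 and 7.17 in control and 7.43 and 7.42 in knockout, a difference of 0.01 (limma adjusted p = 0.981, named-gene fit). Zbtb20 differed by -0.07, Zhx1 by 0.04, Zhx3 by -0.12 and the p53 gene Trp53 by 0.16, none with a call. Among 12 listed activators of the Afp promoter and enhancers 10 did not pass, and Foxa2 was lower by 0.55 (adjusted p = 0.0306). Those 10 included Hnf4a (0.04), Nr5a2 (-0.07) and Foxa1 (0.02). Of 5 further regulators the oncogene Myc (0.97, adjusted p = 0.0264) and the beta-catenin gene Ctnnb1 (0.62, adjusted p = 0.0204) were higher. With the replicate block no activator passed, and 1 of the 5 further regulators did.

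A further list held other genes known from fetal liver and hepatoma. In the named-gene fit 17 of 25 measured genes, of 29 listed, were higher, none was lower and 8 did not pass, with a median difference of 1.16. With the replicate block 12 of the 25 passed. The list was drawn up with earlier results of these data known, so its direction is no independent evidence. The 4 with the smallest p were Meg3 (3.60, adjusted p = 0.00130), Spp1 (3.23, adjusted p = 0.00130), Igf2 (4.37, adjusted p = 0.00234) and H19 (4.36, adjusted p = 0.00250). Igf2 and H19 also had unlike controls, as Ly6d did: 8.09 and 9.20 for Igf2 and 8.5 and 9.64 for H19, with control replicate 2 higher. Dlk1, a further imprinted fetal gene, measured 6.8 and 7.0 in control and 6.90 and 7.18 in knockout without a call. Control means of 16 of the 25 genes were at or near background.

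**Figure D4:**
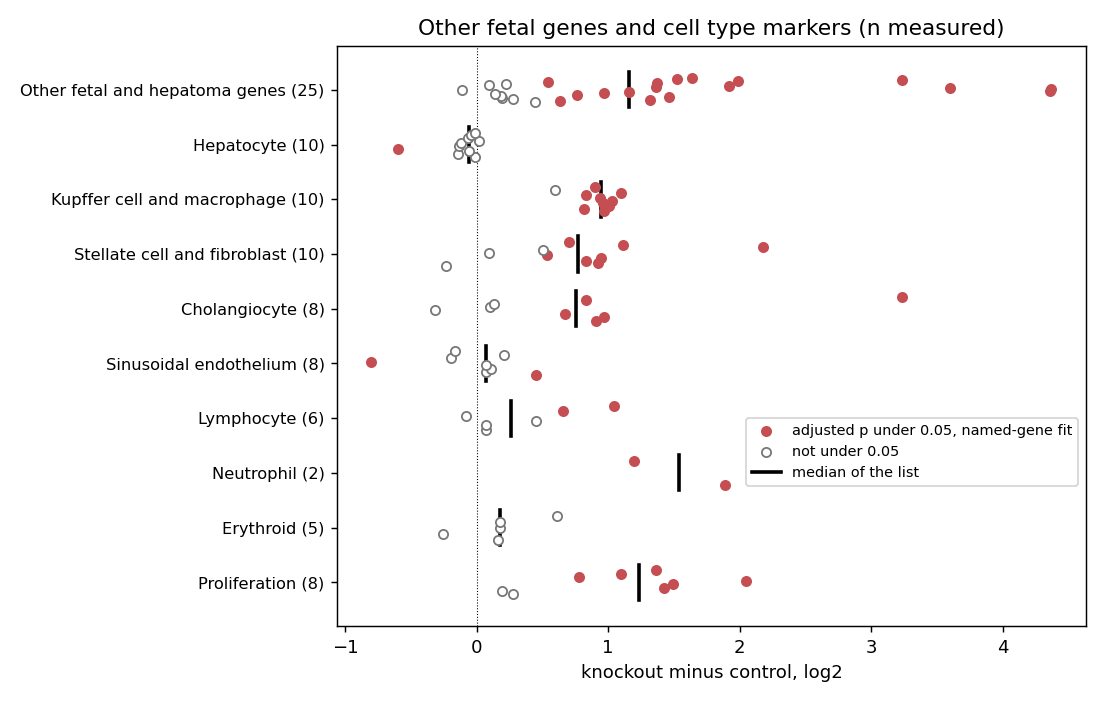
Knockout minus control on the log2 scale (horizontal axis) for other fetal and hepatoma genes and for markers of liver cell types (vertical axis), 1 point a gene, with the list's median as a black bar. Filled points passed at an adjusted p under 0.05 in the named-gene fit; macrophage, stellate cell and proliferation lists lie mostly to the right of 0, hepatocyte markers around it.

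Markers of several other cell types moved with the marker genes. In bulk liver a change in the share of a cell type and a change in RNA per cell cannot be told apart. All 10 hepatocyte markers of the labelled tissue were above background in control, with a mean level of 12.84 to 12.88 there and 12.70 to 12.78 in knockout, and 9 did not pass in the named-gene fit, with only the asialoglycoprotein receptor gene Asgr1 lower, by 0.60 (adjusted p = 0.0403). Kupffer cell and macrophage markers were higher in 9 of 10 genes (median 0.95), and those with the smallest p were C1qc (0.96), C1qb (1.01), Csf1r (1.10) and Cd68 (0.94). Their mean level was 8.45 to 8.49 in control arrays and 9.28 to 9.49 in knockout arrays. Stellate cell and fibroblast markers were higher in 7 of 10 (median 0.77), with Lum (2.17), Col1a1 (0.92), Pdgfrb (1.11) and Col3a1 (0.94) first by p, and a mean level of 7.59 to 7.85 against 8.44 to 8.52. Both cell types are known to make galectin-1, and their part in the value of Lgals1 was not tested.

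Cholangiocyte markers were higher in 5 of 8 measured genes (median 0.75), with Spp1, Cldn4 (0.90) and Sox9 among them, whereas the duct keratins Krt7 (0.10) and Krt19 (-0.32) did not pass. Their mean level was 6.65 to 7.13 in control and 7.64 to 7.77 in knockout, and Tff2 and Cftr were not measured. Bile ducts are a known source of Tff3 and Sox4, and their part in those values was not tested. Among lymphocyte markers 2 of 6 measured genes were higher, Ptprc (1.04) and Ltb (0.66), with a mean level of 6.23 to 6.28 against 6.52 to 6.73. Sinusoidal endothelial markers had 1 gene higher, Cdh5 (0.45), and 1 lower, Lyve1 (-0.80), of 8. No erythroid marker of 5 passed, and both measured neutrophil markers, S100a8 (1.88) and S100a9 (1.20), were higher from control means at background. Proliferation genes were higher in 6 of 8 (median 1.23), with Ccna2 (1.42), Ccnb1 (1.49), Ccnb2 (2.04) and Cdk1 (1.10) first by p, each from a control mean at or near background. The part of these cell types in the differences of the marker genes was not tested.

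**Figure D5:**
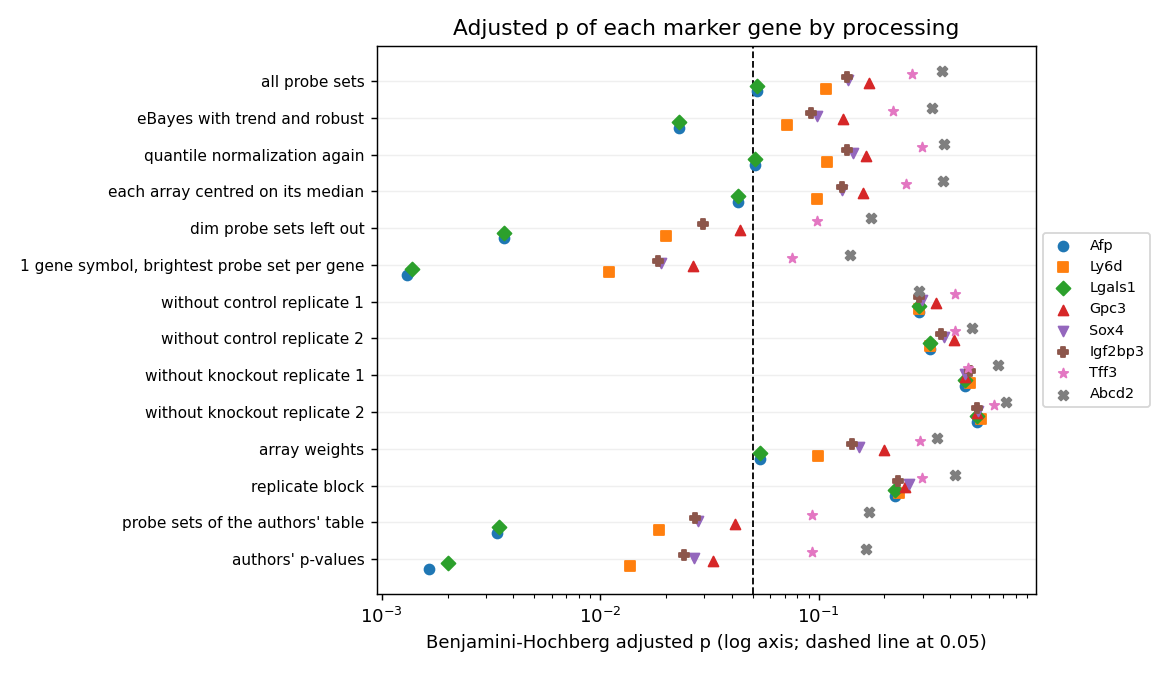
Adjusted p on a log axis (horizontal) for each of the 8 marker genes under each processing (vertical), with a dashed line at 0.05. Points of Afp and Lgals1 lie at 0.0524 over all probe sets and move to 0.00130 and 0.00137 in the named-gene fit, while those of Tff3 and Abcd2 stay to the right of the line throughout.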

How the data were processed

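Liver RNA of the 5-week samples was measured on Affymetrix whole-transcript arrays. The deposited log2 values come from RMA in Affymetrix Expression Console, per the submitters' processing notes. No version or genome build was given in the sources used here. The array table holds 35556 probe sets with values rounded to 2 decimals. The authors' deposited table adds gene names for 14996 of them, a log2 mean for each genotype, a linear fold (ratio) and a p-value per the file headers, whose test is not stated; its means equal those of the array table within rounding. A further 4 columns of single arrays in it match no sample label and were not used. The number of arrays limits the precision.

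Names were updated through RefSeq (GRCm38.p6, names only): 13056 by accession, 987 by symbol and 485 by synonym, with 380 kept and 88 with several symbols left out. Fits used limma 3.58.1 in R 4.3.3 (lmFit and eBayes, two-sided) and were tested on simulated data. Per-gene names were lacking for the 8-week array, so the planned 8-week fits, exact tests and profile search were not run, and likeness was computed over the 4 arrays of 5 weeks instead. The named genes follow a rule: all members, and of each list every gene that passed, or the 4 with the smallest p where more passed. List genes named without a call were chosen after their values were seen. Members and lists were chosen with earlier results of these data known. A few genes of these lists are not reported here by name.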

Additional observations from a re-analysis of the deposited data

How the results depend on the processing

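The direction of the difference was kept for all 8 marker genes under every alternative run. Calls were not. Against none in the fit over all 35556 probe sets, limma called 436 probe sets and 2 marker genes with trended and robust variance, 56 and 2 with arrays centred on their medians, 1606 and 5 with dim probe sets left out (Sox4 then was not tested), 1928 and 6 over named genes and, as chosen after seeing the data, 1794 and 6 over the probe sets of the authors' table. The authors' deposited p-values gave 1786 and 6. Repeated quantile normalization, array weights and the replicate block gave 0 and 0, and leaving out each array 0 to 0 for both. In the fit over all probe sets 23.2% of the probe sets in the authors' table and 10.5% of the others had an unadjusted p under 0.05, and 15.9% of all.

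In the named-gene fit, with alternatives chosen after seeing the data, 1928 genes and 6 marker genes became 0 to 0 and 0 to 0 without any 1 array. The replicate block gave 837 genes and 4 marker genes (Gpc3 and Sox4 lost), and trended and robust variance 2180 genes and 4 marker genes (Gpc3 and Ly6d lost). Deviations of same-numbered arrays from their group means had a correlation of 0.0948, and no label says what a number stands for, so whether the numbers pair the arrays is not known. The 75th percentile of the receptors put 4 rather than 5 marker genes at or near background. Averaging the probe sets of a gene changed no count of the lists. The 8-week alternatives were not run, as that array's probe sets carry no gene names here.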
